A study of Mus musculus with 5 samples.

Results

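The Ly6/uPAR family comprises small, cysteine-rich proteins, most of them held at the cell surface by a glycosylphosphatidylinositol (GPI) anchor, and many of the mouse genes lie in a group on chromosome 15. Some are used as markers of progenitor, endothelial or blood cells, some are induced by interferon, and others belong to stratified epithelium. A group of 6 members was described here, out of the 44 genes of a Ly6/uPAR family list that were found in the gene lists of 5 single-cell RNA-seq libraries, which held 31053 or 32285 genes. The 6 were Psca (prostate stem cell antigen, an epithelial surface protein), Ly6a (Sca-1, a surface marker of mouse progenitor cells that responds to interferon), Ly6c1 (an antigen of endothelial and blood cells), Ly6d (a surface protein of stratified epithelium and early B cells), Ly6e (an interferon-induced surface protein) and Lypd3 (C4.4A, a surface protein of suprabasal stratified epithelium). They were selected on their measured UMI levels in these libraries, including the ratios of irradiated to control organoids, so these values are a description with no test.

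Cells of the submandibular salivary gland of C57BL/6 mice were measured either fresh (tissue) or after growth as salivary gland organoids (mSGOs) in Matrigel. The 5 libraries were mSGOs on day 7 without irradiation (control), mSGOs on day 7 that had received 7 Gy of photons or 7 Gy of protons on day 5, mSGOs on day 11 without irradiation, and fresh tissue without irradiation. Donor mice were female per the study's methods and 8 to 12 weeks old per the labels, which give no age for the 11-day mSGOs. The 7-day organoids were derived from 4 animals, the medium of all organoids contained EGF, FGF2, insulin, dexamethasone, Y27632 (a ROCK inhibitor), R-spondin1 and Wnt3a, and only cells that excluded propidium iodide were loaded. The 11-day mSGOs came from other animals and a separate run, and their matrix was made with another software version and gene list, so age in culture and run cannot be told apart.

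Each group held 1 library, so no difference was tested and no p-value is given. The 95% intervals cover counting error alone. A level is the sum of a gene's unique molecular identifiers (UMIs) in all barcodes retained for a library, given per 1000000 UMIs of those barcodes (CPM). Levels are compared between libraries and clusters, not between genes.

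The kept barcodes numbered 6494 in the control, 16929 after photons, 15325 after protons, 9484 in 11-day mSGOs and 1402 in tissue, with 5925403 to 32102942 UMIs per library. Deposited barcodes numbered 7151, 19189, 18635, 14266 and 13547 in the same order, so the tissue values rest on a small part of its deposited barcodes. Most 7-day barcodes were shallow, with a median of 899 to 1064 UMIs against 3026.5 in 11-day mSGOs and 2378.5 in tissue. Malat1, a transcript retained in the nucleus, made up at least 1% of the UMIs in 16.0% of the barcodes of the control, 9.36% after photons, 8.96% after protons, 98.8% in 11-day mSGOs and 11.3% in tissue, and the 7-day comparisons are therefore given over all barcodes and over these Malat1-rich barcodes. Of 10 acinar markers, 2 to 6 were detected in the organoid libraries, with a summed level of 8.20 to 30.9 CPM against 42876 CPM in tissue, while basal duct markers summed to 3989 to 9592 CPM in mSGOs and 21.9 CPM in tissue. Acinar markers of the gland were thus seen in tissue and were near 0 in mSGOs.

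In GRCm38.p6 coordinates from RefSeq, 5 of the 6 genes lay within 334 kb on chromosome 15, and all 6 were protein-coding. They were Psca (chr15:74714839-74717065), Ly6d (chr15:74762056-74763567), Ly6e (chr15:74955025-74959904), Ly6a (chr15:74994877-74998031) and Ly6c1 (chr15:75044018-75048920), whereas Lypd3 lay on chromosome 7 (chr7:24636570-24641118). UMIs were counted per gene, so no exon was resolved. Of 50-base words in the last 400 bases of the members' protein-coding transcripts, 30.3% of those of Ly6c1 also occurred in transcripts of other genes, mostly Ly6c2, as did 31.4% of those of Ly6a, mostly in the overlapping long noncoding gene Gm28068. None were shared for Psca, Ly6d, Ly6e or Lypd3. The Ly6c1 and Ly6a levels are therefore less certain than the others, although Gm28068 itself was counted at 1.78 CPM or less in every library.

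Psca was the member with the largest ratio between irradiated and 7-day control organoids. It was measured at 109 CPM in the control (interval 104 to 114), 392 CPM after photons (385 to 400), 265 CPM after protons (259 to 272) and 102 CPM in 11-day mSGOs (98.1 to 105). In tissue it had 0 UMIs, with an upper limit of 0.623 CPM by the same interval. A count of 3 in that library would be 0.506 CPM. Both irradiated libraries stood above both untreated organoid libraries, and the intervals of control and 11-day mSGOs overlapped. In 11-day mSGOs 1 barcode held 33.5% of the Psca UMIs, a spread that the counting interval does not cover. The place of 11-day mSGOs in this order depended on the barcodes. In Malat1-rich barcodes they were at 102 CPM (98.9 to 106), above the control at 51.1 CPM (45.9 to 56.8), and in barcodes with at least 2500 genes they were at 294 CPM (278 to 310). Without the 1 barcode with most Psca UMIs in each library, a setting chosen after seeing the data, they were at 68.0 CPM in the first set against 48.4 CPM in the control, and at 149.7 CPM (139 to 161) in the second, where 1 barcode held 677 of the 1377 UMIs.

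Ly6a was measured at 1464 CPM in the control (1446 to 1483), 1779 CPM after photons (1763 to 1795), 1605 CPM after protons (1589 to 1621), 2232 CPM in 11-day mSGOs (2216 to 2249) and 149 CPM in tissue (139 to 159). Ly6e followed the same order, with 605 CPM in the control (593 to 618), 725 CPM after photons (715 to 735), 651 CPM after protons (641 to 661), 1085 CPM in 11-day mSGOs (1074 to 1097) and 188 CPM in tissue (177 to 199.6). For both genes 11-day mSGOs were highest and tissue lowest in these sums, and no 2 intervals overlapped. In Malat1-rich barcodes, 158 of which were from tissue, Ly6a was again lowest in tissue at 794 CPM (732 to 860), but Ly6e in tissue, at 838 CPM (775 to 906), was above the 7-day libraries, at 642 to 733 CPM.

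Ly6d was measured at 3491 CPM in the control (3462 to 3520), 3899 CPM after photons (3875 to 3923), 3652.5 CPM after protons (3629 to 3676), 4237 CPM in 11-day mSGOs (4214 to 4259) and 19.4 CPM in tissue (16.0 to 23.3). All 4 organoid libraries were within 1.22-fold of the control, and tissue stood far below them. Lypd3 was measured at 249 CPM in the control (241 to 257), 184 CPM after photons (179 to 189.6), 183 CPM after protons (178 to 189) and 13.8 CPM in 11-day mSGOs (12.6 to 15.2), and it had 0 UMIs in tissue. It was the member with the lowest level in 11-day relative to 7-day mSGOs, and the intervals of the irradiated libraries overlapped each other but not that of the control.

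Ly6c1 was measured at 163 CPM in the control (157 to 169), 148 CPM after photons (143 to 152), 135 CPM after protons (131 to 140), 121 CPM in 11-day mSGOs (118 to 125) and 91.5 CPM in tissue (83.9 to 99.5). The control was highest and tissue lowest in these sums, with no overlap between intervals. In Malat1-rich barcodes tissue was instead highest, at 559 CPM (507 to 614) against 165 CPM in the control (155 to 174) and 121 to 164 CPM in the other mSGOs.

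**Figure D1:**
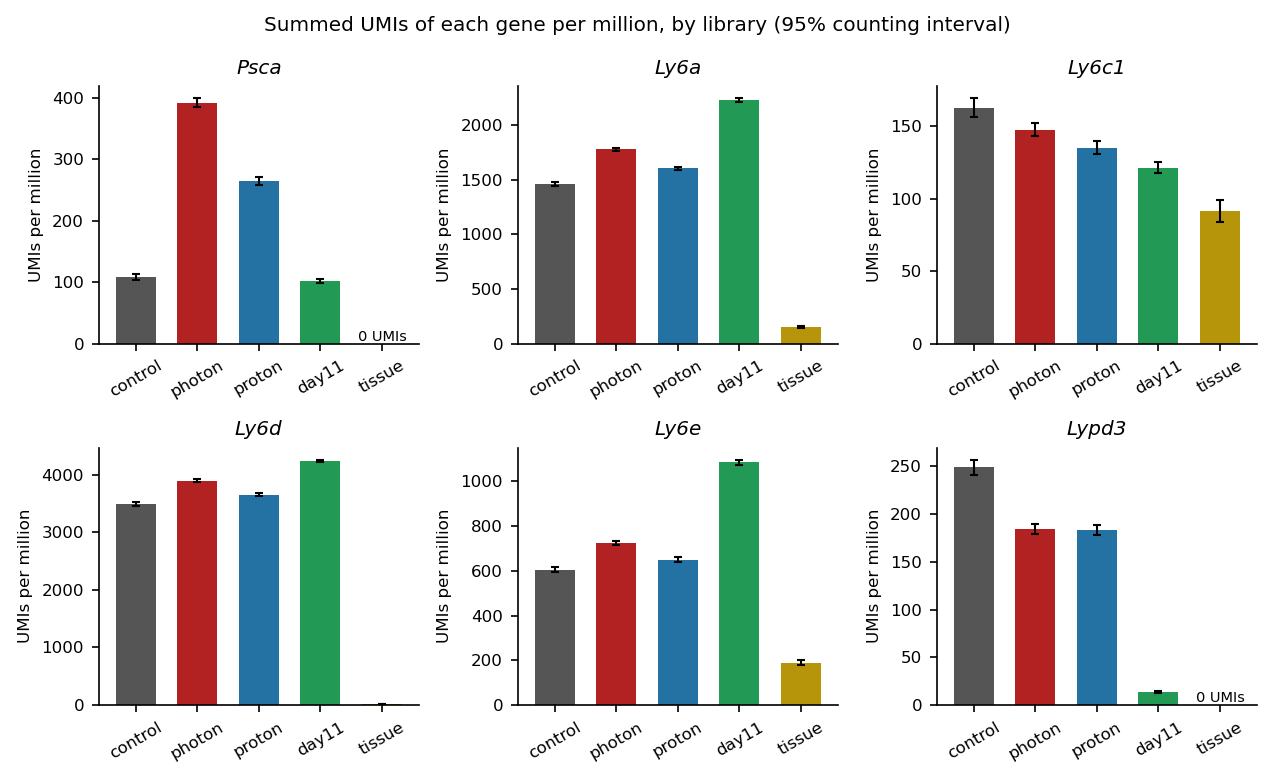
Level of each member in CPM (linear axis from 0), 1 bar per library with its 95% counting interval. Psca was highest after photons at 392 CPM, Lypd3 was highest in the control at 249 CPM, and neither had a UMI in tissue.

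Photon-irradiated mSGOs were compared with the control. As each was 1 library, radiation and other differences between the libraries cannot be told apart, here or after protons. A gene was counted as past the threshold where its log2 ratio of CPM, with a pseudocount of 1 CPM, was at least 0.5 in either direction, and 6.43% of the 4353 genes with enough UMIs were past it. Psca had a log2 ratio of 1.84 (1.78 to 1.92), a 3.58-fold higher level, which was the highest of the 4353 genes. Ly6a had a ratio of 0.28 (0.26 to 0.30), Ly6e 0.26 (0.22 to 0.30) and Ly6d 0.16 (0.14 to 0.17), beside a median of 0.08 over all genes. Ly6c1 was lower at -0.14 (-0.21 to -0.07, but 0.23 in barcodes with at least 2500 genes), and Lypd3 was lower at -0.43 (-0.49 to -0.37), just short of the threshold. Thus 1 of 6 members was past 0.5.

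In Malat1-rich barcodes Psca was measured at 51.1 CPM in the control (45.9 to 56.8), 379 CPM after photons (366 to 393) and 196 CPM after protons (186 to 206). The log2 ratio after photons was 2.87 (2.73 to 3.06), a 7.30-fold higher level and the second highest of 4792 genes. Lypd3 was measured at 257 CPM in the control (245 to 270), 171 CPM after photons (163 to 180.5) and 179.5 CPM after protons (170.5 to 189), a log2 ratio of -0.58 (-0.69 to -0.48) after photons that was past the threshold. Ly6a had a ratio of 0.28 (0.24 to 0.31) and Ly6e one of 0.18 (0.12 to 0.23), whereas the intervals of Ly6d (0.02, -0.00 to 0.05) and Ly6c1 (-0.01, -0.12 to 0.11) included 0. Here 2 of 6 members were past 0.5, beside 7.03% of all genes.

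In proton-irradiated mSGOs the members past 0.5 were the same as after photons in both sets of barcodes, with a smaller Psca ratio. Over all barcodes Psca had a log2 ratio of 1.28 (1.21 to 1.36), a 2.43-fold higher level that ranked 14 of 4353 genes, and Lypd3 one of -0.44 (-0.50 to -0.38). Ly6a had a ratio of 0.13 (0.11 to 0.16), Ly6e 0.10 (0.07 to 0.14), Ly6d 0.07 (0.05 to 0.08, but -0.04 with median-of-ratios scaling) and Ly6c1 -0.27 (-0.34 to -0.19), beside a median of 0.10 over all genes. Hence 1 of 6 members was past 0.5, beside 7.08% of all genes. In Malat1-rich barcodes Psca had a ratio of 1.92 (1.77 to 2.11), ranked 10 of 4744, and Lypd3 one of -0.52 (-0.62 to -0.42), so that 2 of 6 were past 0.5 beside 7.21% of all genes. The Malat1-rich ratios of the other 4 members lay between -0.20 for Ly6c1 and 0.07 for Ly6a, and the intervals of Ly6d and Ly6e included 0.

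In barcodes with a Malat1 share under 1%, Psca was measured at 152 CPM in the control (144 to 160), 398 CPM after photons (389 to 407) and 300.0 CPM after protons (292 to 309). The ratios of 1.38 (1.30 to 1.47) and 0.97 (0.89 to 1.07) were smaller than in Malat1-rich barcodes, where the control was lower. Lypd3 was lower here as well, at -0.35 (-0.43 to -0.27) after photons and -0.39 (-0.47 to -0.31) after protons.

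**Figure D2:**
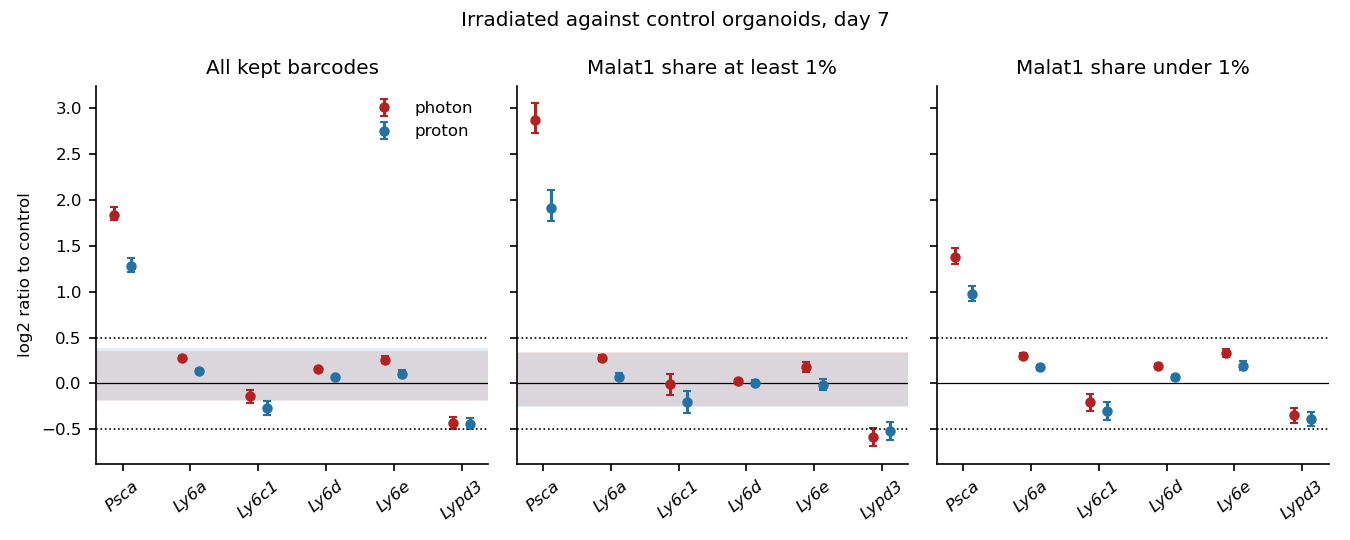
Log2 ratio of each member to the control after photons and protons in 3 sets of barcodes, with 95% counting intervals. Dotted lines mark 0.5, and shading in the first 2 panels is the median of all genes with 1 SD on either side. Psca lies between 0.97 and 2.87 and Lypd3 between -0.58 and -0.35.

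Set against each other over the kept barcodes, proton-irradiated mSGOs had less Psca than photon-irradiated ones. The log2 ratio of protons to photons was -0.56 (-0.61 to -0.52) over all barcodes, where 1.58% of genes were past 0.5, and -0.95 (-1.04 to -0.87) in Malat1-rich barcodes, where 2.49% were. Psca was the 1 member past the threshold in both sets. Ly6a was at -0.15 (-0.17 to -0.13) and -0.20 (-0.24 to -0.17), Ly6e at -0.16 (-0.19 to -0.13) and -0.19 (-0.24 to -0.14), and Ly6c1 at -0.13 (-0.19 to -0.06) and -0.19 (-0.31 to -0.08). The Lypd3 intervals included 0 in both sets, at -0.01 (-0.07 to 0.05) and 0.07 (-0.04 to 0.17). Both comparisons with the control share that 1 library.

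The order of photons and protons in Psca depended on which barcodes were kept. The study's methods state that cells with fewer than 2500 detected genes were excluded. Applied here, that limit left 193 control, 248 photon and 218 proton barcodes. The paper reports far more mapped cells for unirradiated organoids of the same age, so these barcodes are not the paper's set of cells. In the barcodes left here Psca was measured at 36.6 CPM in the control (29.6 to 44.7), 199.7 CPM after photons (184 to 216) and 209.8 CPM after protons (193 to 228). Both irradiated libraries thus stayed above the control, while their own intervals overlapped. Without the top barcode of each library the levels were 32.1 CPM (25.6 to 39.8), 156 CPM (142 to 170.4) and 132 CPM (118 to 146), again overlapping between photons and protons but in the other order. Lypd3 was at 187 CPM (170 to 204), 145 CPM (131 to 159) and 139 CPM (126 to 154), and was again lower in both irradiated libraries.

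The summed level does not tell more barcodes with Psca from more Psca per barcode, so both were counted. A Psca UMI was found in 17.6% of control, 33.6% of photon, 25.3% of proton and 1.28% of 11-day barcodes, and in 0 of 1402 tissue barcodes, where 3 barcodes would be 0.214%, a limit on barcodes with a UMI and not on cells that express the gene. After thinning to 1000 UMIs, which kept 2564, 9989, 6763 and 9334 barcodes, the shares were 9.83%, 28.6%, 20.3% and 0.546%, and among Malat1-rich barcodes they were 4.49% for control, 14.4% for photon and 8.20% for proton libraries. More barcodes therefore held Psca after irradiation at equal depth. No cluster of the 7-day libraries was named for a cell type that should lack Psca, so no level of free RNA is set beside these shares.

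A few barcodes held much of the transcript. At least 20 Psca UMIs were found in 0 of 6494 control barcodes, 21 photon, 16 proton and 15 of the 11-day barcodes. The highest barcode held 19, 806, 372 and 1092 UMIs in these libraries. Barcodes with at least 20 UMIs held 23.4% of all Psca UMIs after photons and 21.0% after protons. In Malat1-rich barcodes the 14 photon and 9 proton barcodes of this kind held 70.2% and 66.5%. In 11-day mSGOs the 15 such barcodes held 93.7%, and the 1 highest barcode held 33.5% of the library's Psca UMIs.

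With every barcode capped at 5 UMIs of the gene, a setting chosen after seeing the data, the Psca log2 ratios were 1.56 after photons and 1.05 after protons over all barcodes, and 1.50 and 0.73 in Malat1-rich barcodes. The direction was the same as without the cap, and the Malat1-rich ratios were those it reduced most. For abundant members such as Ly6d the cap also cuts ordinary deep barcodes, so it is read here for Psca. In 11-day mSGOs the cap gave -3.55 against the control in place of -0.09.

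**Figure D3:**
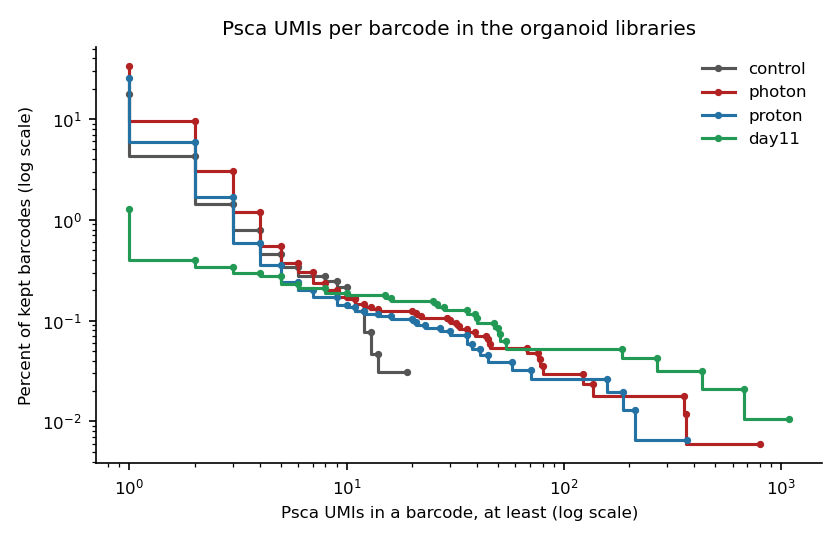
Percent of kept barcodes with at least the number of Psca UMIs on the x axis, for the 4 organoid libraries (both axes logarithmic). The control ends at 19 UMIs, the photon library at 806, the proton library at 372 and the 11-day library at 1092, and the 11-day curve starts at 1.28%.

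The barcodes with at least 5 Psca UMIs, 30 in the control, 93 after photons, 54 after protons and 26 in 11-day mSGOs, were rich in transcripts of the cornified layer. A list of 35 cornification genes, of which 34 were in the gene list, summed to 46509 CPM in those control barcodes, 43074 CPM after photons, 54171 CPM after protons and 25206 CPM in 11-day mSGOs, against 9739, 9682, 8206 and 3267 CPM in barcodes without a Psca UMI. Their Ly6d level was 7058, 7414, 10042 and 7033 CPM, against 3299, 3739, 3452 and 4207 CPM in barcodes without. Lypd3 was at 583, 485, 659 and 136 CPM, against 242, 167, 169 and 12.6 CPM. These barcodes were also deeper, with a median of 4058 to 7230 UMIs.

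Clustering of the 7-day libraries without the family genes gave 6 clusters, of which cluster 6 (176 barcodes) was cornifying-like, led by Sprr1a, Krt23, Klk14 and Klk10. In it Psca was measured at 242 CPM in the control (203 to 286, 67 barcodes), 3988 CPM after photons (3828 to 4154, 56 barcodes) and 2185 CPM after protons (2062 to 2314, 53 barcodes). The log2 ratios within the cluster were 4.04 (3.80 to 4.30) and 3.17 (2.92 to 3.44), the largest of any member in any 7-day cluster. The share of cluster barcodes with a Psca UMI was 34.3%, 71.4% and 60.4%. Without the single barcode with most Psca UMIs in each library, the levels were 211, 2690 and 1523 CPM. More than that barcode stood out after irradiation. The highest photon barcodes held 806, 366 and 360 of the cluster's 2326 Psca UMIs. The highest proton barcodes held 372, 214, 188 and 159 of 1178, and no control barcode held more than 19 of 139. The size of these ratios thus rests largely on a few barcodes, a spread that the counting intervals do not cover.

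Cluster 6 also had the highest Lypd3 and Ly6d levels of the 7-day clusters. Lypd3 was measured at 1567 CPM in the control (1466 to 1673), 1108 CPM after photons (1024 to 1197) and 1163 CPM after protons (1074 to 1258), log2 ratios of -0.50 (-0.65 to -0.35) and -0.43 (-0.58 to -0.28). Ly6d was at 9657, 10513 and 11055 CPM, and Ly6a at 1079 CPM in the control (996 to 1168), 1981 CPM after photons (1868 to 2098) and 1616 CPM after protons (1510 to 1727). Within this cluster Psca and Ly6a were thus higher and Lypd3 lower after either radiation. Ly6c1 was lower here than in any other 7-day cluster, at 42.9 to 55.7 CPM.

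The cornifying-like cluster made up 1.03% of the control's barcodes, 0.331% after photons and 0.346% after protons. Genes that define it also differed between the libraries, so these shares are given beside the ratios and not compared. Without the cluster, Lypd3 had summed ratios of -0.28 (-0.35 to -0.21) for photons and -0.30 (-0.37 to -0.23) for protons. Psca outside the cluster was higher as well, with ratios of 1.58 (1.52 to 1.67) and 1.09 (1.02 to 1.18).

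The other 5 clusters could not be named. Clusters 1 to 3 held shallow barcodes, with medians of 794 to 1013 UMIs, and were led by Lars2, AY036118 and Gm42418 among others. Psca in them was at 128 to 169 CPM in the control, 337 to 363 CPM after photons and 252 to 270 CPM after protons. In cluster 4, of 5252 barcodes led by Slc39a1 and Lrrc8a, Psca was at 165, 511 and 382 CPM, and this cluster held 50.2% of the control's Psca UMIs. In cluster 5, of 3883 barcodes led by Kcnq1ot1, Neat1 and Malat1, Psca was lowest, at 34.4 CPM in the control (30.1 to 39.2), 116 CPM after photons (109 to 124) and 58.8 CPM after protons (53.6 to 64.4). Each of the 6 clusters therefore had Psca in the order control, proton, photon.

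Lypd3 was lower after both radiations in the point value of every cluster, from -0.056 (-0.30 to 0.20) in cluster 3 to -0.50 in cluster 6 after photons. In cluster 3 the intervals included 0 for both radiations. Ly6e was higher after photons in each cluster, by 0.15 in cluster 5 to 0.31 in cluster 4, and after protons its interval included 0 in clusters 3, 5 and 6.

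**Figure D4:**
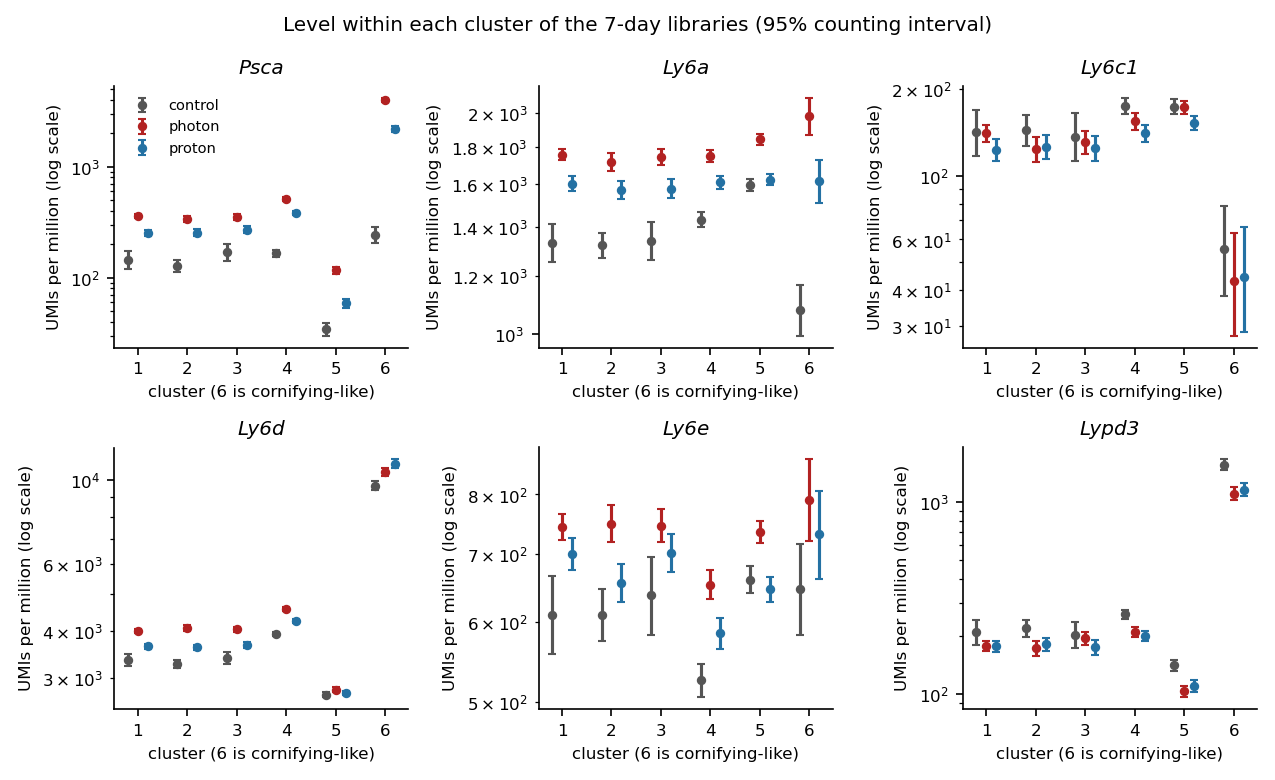
Level of each member in CPM (log axis) in the 6 clusters of the 7-day libraries, 1 point per library with its 95% counting interval. In the cornifying-like cluster 6 Psca was at 242, 3988 and 2185 CPM in control, photon and proton libraries, and Lypd3 at 1567, 1108 and 1163 CPM. A few barcodes held much of the Psca of that cluster in the photon and proton libraries.

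At the coarser resolution of 0.4 no cornifying-like cluster separated in the 7-day libraries, and the highest Psca level of any cluster was 355 CPM. At 1.2 a cornifying-like cluster of 204 barcodes again held the highest Psca (1894 CPM), Ly6d (10012 CPM) and Lypd3 (1213 CPM) levels over the 3 libraries, beside 2147, 10395 and 1281 CPM at the main resolution.

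Against 7-day control mSGOs, 11-day mSGOs had less Lypd3 and more Ly6a and Ly6e. Over the 30406 genes in both gene lists, Lypd3 had a log2 ratio of -4.07 (-4.31 to -4.02), a 16.8-fold lower level. Ly6e had a ratio of 0.85 (0.82 to 0.88), Ly6a 0.61 (0.59 to 0.64), Ly6d 0.29 (0.27 to 0.30), Ly6c1 -0.42 (-0.49 to -0.35) and Psca -0.09 (-0.18 to -0.01). Without its 1 highest barcode in each library, Psca was at -0.66, with at least 2500 genes it was at 2.98, and in Malat1-rich barcodes it was at 0.99. Thus 3 of 6 members were past 0.5 where 75.8% of all genes were, at a median of 0.97 over all genes, and relative to that median every member was lower. With median-of-ratios scaling, which shifted this comparison by -0.99, Ly6a was at -0.38, Ly6e at -0.15 and Ly6d at -0.71.

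In 11-day mSGOs nearly all Psca UMIs were in cluster 3, which was cornifying-like (1539 barcodes, led by Sprr2d, Sprr2f, Cxcl3 and Krt6b). It was measured there at 508 CPM (491 to 526), or 335 CPM without its 1 highest barcode, and the cluster held 97.8% of the library's Psca UMIs, against 0 to 19.9 CPM in the other 8 clusters. The barcodes with a Psca UMI were less concentrated, with 58 in cluster 3 (3.77% of it) and from 0 to 20 in each other cluster. Lypd3 was also highest there, at 40.3 CPM (35.5 to 45.6), as were Ly6a at 3373 CPM (3328 to 3419) and Ly6d at 6021 CPM (5960 to 6082). Ly6e was highest in cluster 7, at 1451 CPM (1402 to 1503), and in cluster 3 it was at 1366 CPM (1338 to 1396). Ly6a and Ly6e were found in 84.0% or more of the barcodes of each cluster but cluster 9, whose 104 shallow barcodes had a median of 747.5 UMIs. At a resolution of 0.4 Ly6e was instead highest, at 1404 CPM, in a cluster led by Sprr2f and Sprr2d that was not named. That cluster also had the highest Psca level, at 411 CPM. At 1.2 both were highest in a cornifying-like cluster, Ly6e at 1417 CPM and Psca at 671 CPM.

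The gene lists were set beside all genes with at least 10 UMIs, of which 63.1% were higher by 0.5 in 11-day mSGOs and 8.74% lower, at a median of 0.80. Of 29 measured cornification genes, 24 were lower by at least 0.5 and 2 higher, at a median log2 ratio of -2.46. Of 27 measured interferon genes, 25 were higher and 0 lower, at a median of 1.94, and 18 of 27 measured genes of GPI anchor synthesis were higher and 3 lower, at 1.13. The interferon-responsive members Ly6e and Ly6a, at 0.85 and 0.61, lay below the median of the interferon list.

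In tissue all 6 members were lower than in the control over all kept barcodes, beside 94% of all genes past 0.5 and a median of -1.78 over all genes. Psca and Lypd3 had 0 UMIs, which put Psca at least 72.8-fold and Lypd3 at least 166-fold lower, with the same 3 counts (0.506 CPM) assumed for the library and the pseudocount of 1 CPM. Ly6d had a log2 ratio of -7.42 (-7.77 to -7.23), Ly6a -3.29 (-3.40 to -3.20), Ly6e -1.68 (-1.78 to -1.60) and Ly6c1 -0.83 (-0.97 to -0.70). With median-of-ratios scaling, which moved this comparison by 1.81, Ly6c1 was higher in tissue at 1.02 and Ly6e at 0.17. The same 2 members were higher in tissue in Malat1-rich barcodes, at 1.76 and 0.37, while Ly6a was at -0.93 and Ly6d at -5.91 there. The 10 endothelial markers summed to 3397 CPM in those tissue barcodes and 549 CPM over all kept ones, against 16.9 CPM in the Malat1-rich control, and their part in these ratios was not tested.

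Within tissue, Ly6a, Ly6c1 and Ly6e peaked together in an endothelial-like cluster, cluster 9, of 70 barcodes led by Cavin2, Ptprb and Pecam1. They were measured there at 2625 CPM (2424 to 2839), 1930.2 CPM (1758 to 2115) and 1784 CPM (1618 to 1961), and found in 94.3%, 92.9% and 95.7% of barcodes. A second endothelial-like cluster of 98 barcodes, cluster 5, led by Scn7a, Cavin3 and Emcn, had far less, with 252 CPM of Ly6a (189 to 329), 147 CPM of Ly6c1 (100.04 to 209) and 161 CPM of Ly6e (112 to 226). The endothelial-like clusters thus differed in these members. In mSGOs the 10 endothelial markers summed to 13.5 to 20.6 CPM, against 549 CPM in tissue, so the Ly6a, Ly6c1 and Ly6e levels of mSGOs were measured beside endothelial markers near 0.

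Ly6e was spread more widely over the tissue clusters than Ly6a or Ly6c1. It was at 618 CPM (438 to 849) in a T or NK-like cluster of 15 barcodes in which the other 5 members had no UMI. It was at 528 CPM (452 to 613) in cluster 10, an unnamed cluster led by S100a8, Retnlg and S100a9, at 303 CPM (243 to 372) in striated or granular duct-like barcodes, at 267 CPM (200.3 to 350) in macrophage-like barcodes, and at 43.9 to 53.4 CPM in the acinar-like clusters. Ly6d was at 85.0 CPM (55.0 to 125.5) in the duct-like cluster, in 8.57% of barcodes, but 1 barcode held 11 of its 25 UMIs there and the level was 49.0 CPM without it. In endothelial-like cluster 5 it was at 47.5 CPM (22.8 to 87.3) in 9.18% of barcodes, and in endothelial-like cluster 9 it had no UMI. The acinar-like clusters were low in all members, with Ly6a at 8.24 and 9.45 CPM.

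**Figure D5:**
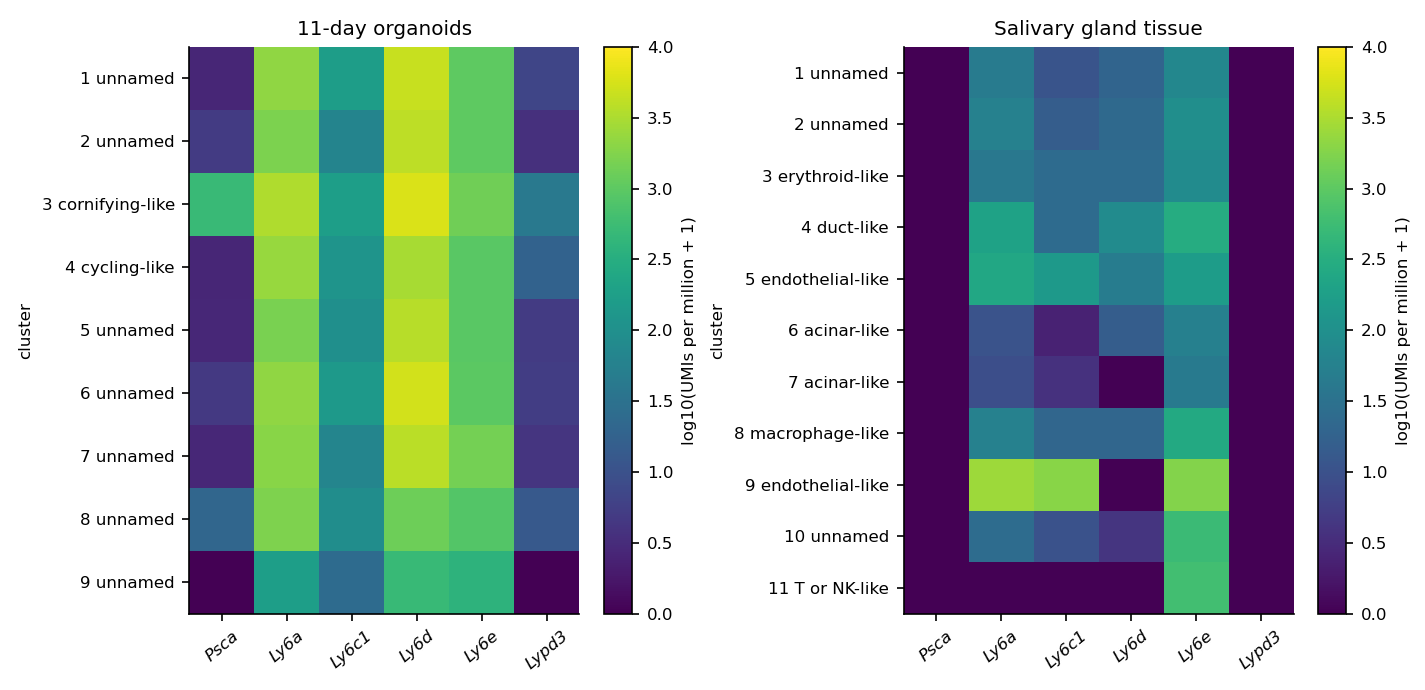
Level of each member in each cluster of the 11-day and tissue libraries, as log10 of CPM plus 1 (duct-like stands for striated or granular duct-like). Psca stands out in cornifying-like cluster 3 of 11-day mSGOs at 508 CPM (335 CPM without 1 barcode), and Ly6a, Ly6c1 and Ly6e in endothelial-like cluster 9 of tissue at 2625, 1930.2 and 1784 CPM.

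The genes whose level followed each member most closely were found over the 36 sums of 1 cluster in 1 library with at least 50 barcodes, among 10867 genes. These points share libraries and depth, and organoid and tissue points lie apart, so the Pearson r of log2(CPM + 1) is a description. Psca was most like Sprr2d (r = 0.98), Crct1 (0.97) and 2300002M23Rik (0.97), and Lypd3 most like Krt16 (0.99), Dynap (0.99) and Krtdap (0.98). Sprr2d, Crct1 and Krtdap encode proteins of the cornifying layer, and Krt16 a keratin of stressed epidermis. Ly6d was most like Krt7 (0.99), Gsta4 (0.97) and Mpzl2 (0.96), of which Krt7 is a keratin of simple and ductal epithelium. Ly6a was most like Cltb (0.97), H3f3a (0.97) and Tagln2 (0.96), and Ly6c1 most like Eva1b (0.90), Cav2 (0.89) and Selenow (0.88). The genes that followed Ly6e closely included Myl12b (0.96) and Myl12a (0.96). Among the members, the highest r were those of Psca with Lypd3 (0.96), Ly6a with Ly6e (0.95) and Ly6a with Ly6c1 (0.86), and the lowest was that of Psca with Ly6c1 (0.40).

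The neighbours of these genes on chromosome 15 were low. Between Psca and Ly6c1, 12 other protein-coding genes were counted, and the highest level of any of them in any library was 13.97 CPM, for Lynx1. Them6, the gene next to Psca, was at 5.24 CPM in the control, 5.68 CPM after photons and 4.48 CPM after protons, where the values lay close together. Lynx1 was higher after irradiation, at 8.27 CPM in the control (6.92 to 9.82), 13.97 CPM after photons (12.6 to 15.5) and 12.3 CPM after protons (10.9 to 13.7). Ly6m was at 3.85 CPM in the control (2.95 to 4.95), 6.89 CPM after photons (5.94 to 7.96) and 1.62 CPM after protons (1.15 to 2.20).

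Of the 38 other family genes, 34 were under 20 CPM in every library, and 9 of those had no UMI. The 4 at 20 CPM or more were Plaur, Ly6g6c, Lypd6b and Gpihbp1. Plaur, the urokinase receptor, was at 34.7 CPM in the control (31.9 to 37.8), 16.1 CPM after photons (14.6 to 17.7), 21.2 CPM after protons (19.4 to 23.1), 24.1 CPM in 11-day mSGOs (22.5 to 25.9) and 7.26 CPM in tissue (5.25 to 9.77), so the control was highest. Its log2 ratios were -1.07 (-1.30 to -0.93) after photons and -0.69 (-0.89 to -0.54) after protons, and -0.81 and -0.36 in Malat1-rich barcodes. Ly6g6c was at 16.8 CPM in the control, 24.7 CPM after photons, 18.4 CPM after protons and 0.249 CPM in 11-day mSGOs, with 0 UMIs in tissue. Lypd6b stood out in 11-day mSGOs, at 54.0 CPM (51.5 to 56.6) against 3.76 to 5.05 CPM in the 7-day libraries and 0.506 CPM in tissue. Gpihbp1, which carries lipoprotein lipase to the capillary wall, was counted in tissue only, at 51.8 CPM (46.2 to 57.9).

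Gene lists related to the members' known roles were read beside them, over genes with at least 10 UMIs in both libraries summed, a looser limit than that of the member comparisons, and a size, not a test, decides the counts. Of all such genes, 6.26% were higher by 0.5 after photons and 2.9% lower, and 5.99% and 3.44% after protons, at medians of 0.08 in both. Of 29 measured interferon genes, 27 were higher and 0 lower after photons, and of 28 measured after protons 25 were higher and 1 lower, at medians of 0.93 and 1.09. Most of these genes were low. Only 6 and 5 of them passed the limit of the member comparisons, of which 5 and 4 were higher, and the summed level of the list was 1399 CPM in the control, 1805 CPM after photons and 1680 CPM after protons. The interferon-responsive members Ly6a and Ly6e were at 0.28 and 0.26 after photons and 0.13 and 0.10 after protons. Of 30 measured cornification genes, 3 were higher and 6 lower after photons, at a median of -0.02, and 0 were higher and 7 lower after protons, at a median of -0.17. Of 27 measured genes of GPI anchor synthesis, 1 was higher and 1 lower after photons, and 2 were higher and 2 lower after protons, with medians of 0.03 and -0.01.

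In Malat1-rich barcodes 10% of such genes were higher and 4.73% lower after photons, and 8.11% and 6.43% after protons, at medians of 0.07 and 0.03. Of 26 measured interferon genes, 24 were higher and 0 lower after photons, and 23 were higher and 1 lower after protons. Of 28 measured cornification genes, 6 were higher and 4 lower after photons, at a median of 0.03, and 3 were higher and 7 lower after protons, at a median of -0.06. Of the GPI anchor genes, 3 of 27 were higher and 1 lower after photons, and 1 of 25 was higher and 2 lower after protons.

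Promoter windows of 300 bases were at hand for 2 of the members, with 1 window for Lypd3 and 2 for Ly6c1 (RefSeq, GRCm38.p6). On both strands, none of the 3 held GAAANNGAA (the core of an interferon-stimulated response element), TTCNNNGAA (a STAT element), TGANTCA (AP-1) or TGTGGTTT (RUNX). The share of 32851 windows of this length that held them was 8.56%, 8.30%, 7.81% and 1.78%.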

How the data were processed

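Members, gene lists and cell type markers were chosen with earlier results of these data known. For each library the authors deposited whole-number UMI counts per gene and barcode; the processing notes name Cell Ranger 5 and mm10, the matrix headers software 3.0.1 (7.0.0 for 11-day mSGOs), and the study's methods GRCm39. All barcodes had at least 500 UMIs. Barcodes with at least 200 genes and a mitochondrial share of at most 5% were kept, and Scrublet doublets were removed (scanpy 1.11.5), at its automatic threshold for photons and otherwise at an expected rate of 0.8% per 1000 barcodes. The libraries shared 33 to 98 barcodes per pair.

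Ratios used a pseudocount of 1 CPM. Intervals (95%: Poisson for levels, conditional binomial for ratios) used none. Genes entered a comparison with at least 200 UMIs in both libraries summed and 20 CPM in the higher. Calls went by size, at a log2 ratio of 0.5. A simulation with known folds drew Poisson counts without spread between barcodes or libraries. It therefore checked the computation only and cannot check the calls on these data. A count of 0 was set at 3 counts for folds and shares. List genes with at least 10 UMIs counted as measured. Leiden clustering (leidenalg 0.10.2, resolution 0.8) left out the family genes. Clusters, rebuilt here, were named where 1 list led or tied both in markers at 2-fold (at least 3) and among the 10 leading genes, the last condition added after seeing the data. Named genes were the 6 members, other family genes at 20 CPM or more, and the 3 genes most like each member. Alternatives covered barcode filters (among them the 2500 genes stated in the study's methods, which did not give the paper's set of cells here), doublets, thinning, pseudocount, scaling and the Malat1 limit. Of the genes most like each member, 1 is not reported here.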

Additional observations from a re-analysis of the deposited data

How the results depend on the processing

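Psca was higher than the control after both radiations in every alternative run, at log2 ratios of 1.38 to 2.42 (photons) and 0.97 to 2.49 (protons) over all barcodes and 1.50 to 3.01 and 0.73 to 2.83 in Malat1-rich barcodes. Lypd3 was lower in every one, at -0.51 to -0.27 and -0.54 to -0.30 over all barcodes and -0.67 to -0.37 and -0.70 to -0.41 in Malat1-rich barcodes, so its count past 0.5 moved with the setting. The share of all genes past 0.5 was not computed under the alternatives, so the member counts under them have no background and only describe the setting. Over all barcodes 2 members were past 0.5 after both radiations under median-of-ratios scaling and, after protons, with totals that leave out mitochondrial and ribosomal protein genes, where the main count was 1. With the cap of 5 UMIs, an alternative chosen after seeing the data like the one without the top barcode, 3 members were past 0.5 after photons and 2 after protons. The added members were Ly6d (0.81 after photons, 0.66 after protons) and Ly6a (0.66 after photons). For such abundant members the cap also cuts ordinary deep barcodes, so these 2 counts are not read. In Malat1-rich barcodes 1 member, not 2, was past 0.5 with at least 2500 genes or with the cap for both radiations, and after protons also with a pseudocount of 10 CPM or a Malat1 limit of 2%. Protons against photons had 0 members past 0.5, not 1, with at least 2500 genes in both sets (Psca 0.071 over all barcodes and 0.098 in Malat1-rich ones, a reversed direction), and over all barcodes also with the mean of barcode shares and at a Malat1 share under 1%. In the 11-day comparison 5 members were past 0.5 at a Malat1 share under 1%, and Psca ranged from -3.55 with the cap to 2.98 with at least 2500 genes. Median-of-ratios scaling turned the direction of Ly6a (-0.38), Ly6e (-0.15) and Ly6d (-0.71) in 11-day mSGOs, of Ly6c1 (1.02) and Ly6e (0.17) in tissue, and of Ly6d after protons over all barcodes (-0.04) and after both radiations in Malat1-rich ones (-0.03 in both). In Malat1-rich barcodes, for these 2 comparisons an alternative added after seeing the data, Psca was higher in 11-day mSGOs (0.99), and Ly6c1 (1.76) and Ly6e (0.37) were higher in tissue. The cause of these changes was not tested. No paired analysis was possible because each group held 1 library, and no replicate could be left out.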
